A study of Mus musculus with 12 samples.

Results

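Genes that moved the same way in adipocytes of both T166 mutants, whatever residue replaced the threonine, were sought by comparing the 8 mutant libraries with the 4 wild-type (WT) libraries. The residue T166, a threonine, lies in the DNA-binding domain of PPARγ, and it was changed in all cells of the mice to alanine (T166A, TA), which cannot be phosphorylated, or to aspartate (T166D, TD), whose negative charge resembles phosphate. A gene was counted as common to the mutants when it passed the test of the mean of TA and TD against WT and when all 8 mutant libraries lay above, or all 8 below, all 4 WT libraries. This held for 995 of the 15117 genes tested, 571 higher and 424 lower.

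The cells came from the stromal vascular fraction of subcutaneous fat of homozygous C57BL/6 mice, with WT littermates from crosses of heterozygotes as controls according to the methods. All 3 genotypes were differentiated alike: confluent cells received 850 nM insulin, 1 nM triiodothyronine, 0.5 mM 3-isobutyl-1-methylxanthine, 125 nM indomethacin and dexamethasone for 4 days, then insulin and triiodothyronine, and total RNA was taken on day 8. Dexamethasone is given as 5 mM in the labels, and the methods give a lower concentration. Each genotype had 4 libraries. Neither source says whether the 4 came from separate mice or separate dishes, so p-values measure the spread between these samples, which may be technical.

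PPARγ is the nuclear receptor that drives fat cell formation. It pairs with a retinoid X receptor on DNA, switches on genes of lipid uptake and storage, and also restrains inflammatory genes. A gene that follows the charge at T166 differs between TA and TD. The genes sought here moved one way with either residue, though some of them also differed in size between TA and TD.

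Library totals ran from 18823619 to 20324286 counts in WT and from 16553324 to 18357864 in the mutants, so each WT library was the deeper. Mitochondrially encoded genes took 4.92 to 5.88% of the counts in WT and 2.74 to 4.50% in the mutants. Skeletal muscle markers set TD replicates 3 and 4 apart, with a summed level of 488 and 287 CPM (counts per 1000000 of the normalized library size). TA replicate 2 at 147 and TD replicate 2 at 137 came next, close to each other, and the rest ran from 21.1 to 42.9 in WT and from 42.5 to 73.5 in the mutants. Results that these libraries bear on are given without both TD libraries, or without the 3 highest, which are called muscle-rich here and include TA replicate 2 but not TD replicate 2. Both choices were made after the values had been seen. Adipocyte markers summed to 31330 to 34960 CPM in WT, 28180 to 35620 in TA and 24000 to 27460 in TD, so all libraries held abundant adipocyte RNA and TD held the least. In RNA from a whole culture, fewer cells of a type and less RNA per cell cannot be told apart.

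Against WT, 1831 genes (12.1% of those tested) were higher and 1532 (10.1%) lower in the mutants by edgeR's quasi-likelihood test at an adjusted p under 0.05. All 8 mutant libraries lay above WT for 583 genes (3.86%) and below for 455 (3.01%), and those that also passed the test were 3.78% and 2.8% of the genes tested. The rises were the larger, with a median log2 fold change of 0.79 and 199 above 1, against a median of -0.45 and 55 below -1 for the falls. At least 5 CPM in WT or in the mutants was reached by 419 of the 571 higher and 393 of the 424 lower genes. A gene near 0 in WT could pass the filter through either mutant group, which favours large rises. The part of this in the difference was not tested. Whether all libraries separated depended most on TA replicate 2 and WT replicate 2. Without the former 1791 genes had no overlap (1031 above and 760 below) and without the latter 1627 (866 above and 761 below), beside 1038 with all libraries. By the full rule 990 genes were higher and 700 lower without TA replicate 2. Without the 3 muscle-rich libraries the numbers were 908 and 626, and 854 of the 995 genes were among them. Without TD replicates 3 and 4 they were 527 and 375, with 833 of the 995 among them.

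The difference between TD and TA is a separate contrast, but the rule is not independent of it, since a gene with TA and TD on opposite sides of WT cannot be counted as common. It passed the test for 134 of the 995 genes (13.5%), beside 16.7% of all tested genes, and nothing is read from these shares. Among the 571 higher genes 50 were further from WT in TD and 31 further in TA, and among the 424 lower genes 23 were further in TD and 30 in TA. For 286 of the higher genes (50.1%) and 309 of the lower (72.9%) the difference did not pass and its 95% interval stayed within 1.5-fold either way, as it did for 7627 of all genes (50.5%). The other 204 higher and 62 lower genes had wider intervals, so these data do not show whether the residues differ there. The share called between TD and TA was 8.80% without TA replicate 1 (12.2% of all tested genes), 7.37% without TD replicate 3 (10.3%) and 8.90% without TD replicate 4 (9.32%). It was 5.65% without both of these TD libraries (4.04%) and 3.59% without the 3 muscle-rich libraries (2.47%).

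**Figure D1:**
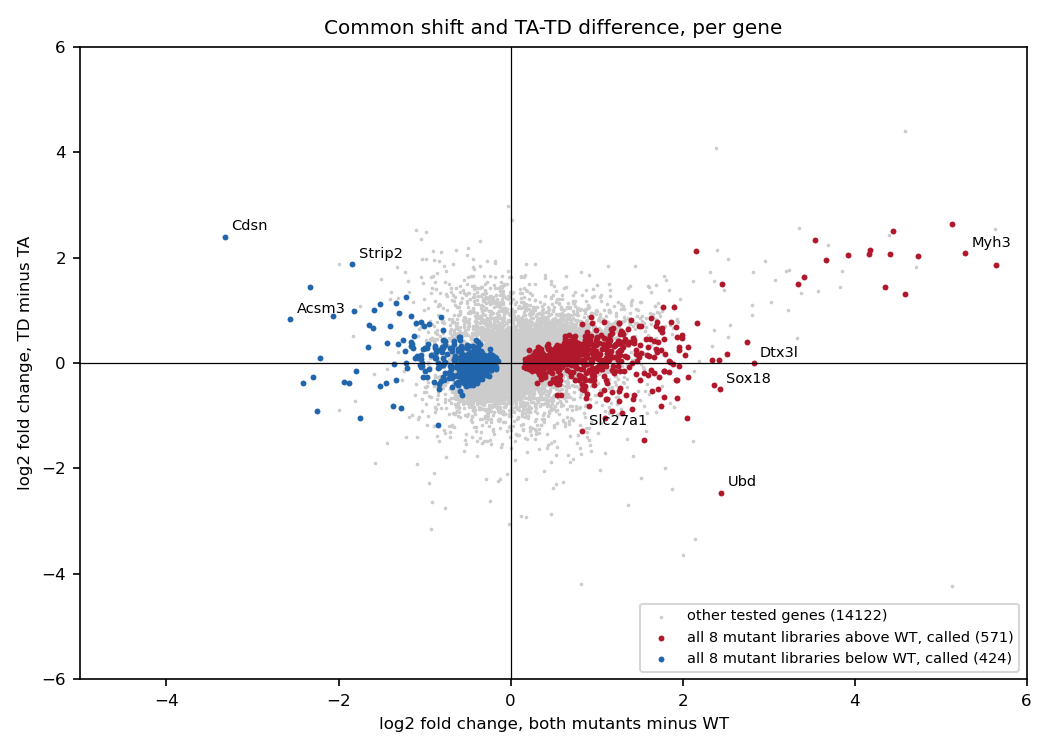
Each point is 1 of the 15117 tested genes, with the log2 fold change of both mutants against WT on the x axis and that of TD against TA on the y axis (1 gene lies outside the axes). The 571 genes above WT in all 8 mutant libraries (red) and the 424 below (blue) lie mostly near 0 on the y axis, and Ubd, Cdsn, Strip2, Slc27a1 and the muscle gene Myh3 lie far from it.

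Gene models known only by a number or accession were left out of the rankings here. Skeletal muscle genes aside, Dtx3l had the largest rise among common genes averaging at least 5 CPM in WT or in the mutants. This E3 ubiquitin ligase works with the ADP-ribosyltransferase Parp9 and is induced by interferon. It read 7.0, 9.68, 6.34 and 8.60 CPM in the 4 WT libraries, 61.7, 62.9, 55.2 and 44.5 in TA and 48.3, 45.2, 57.5 and 73.8 in TD. Every mutant library stood far above every WT library and TA and TD overlapped. The log2 fold change was 2.83 ± 0.16 (SE, adjusted p 3.09e-08), and TD and TA differed by 0.00 (95% interval -0.31 to 0.32). The gene (ENSMUSG00000049502) lies on the minus strand at chr16:35926511-35939151 of GRCm38. There it overlaps Parp9, which is transcribed from the other strand and had the higher mean count, so the counts of both are uncertain where reads were assigned without strand. Parp9 itself rose by 0.42 (adjusted p 0.0137) and did not separate all libraries, and its paralog Parp14 rose by 0.92 (adjusted p 0.00147).

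Interferon-stimulated genes, which encode sensors and effectors against viruses, rose as a list. Of 56 tested, 36 were higher (64.3%) and 1 lower (1.79%, Ifi27), beside 12.1% and 10.1% of all genes. The median log2 fold change was 0.61 (0.72 in TA and 0.50 in TD) where the median of all genes was -0.0044. All libraries separated for 8 of the higher genes, Dtx3l, Zbp1 and Oas2 among them, where 3.78% of all genes did. The summed level of the list was 3150 to 3982 CPM in WT and 4998 to 5681 in TA. In TD it was 3826 and 3689 in replicates 1 and 2, within the range of WT, and 5470 and 5786 in replicates 3 and 4. These last 2 are also the libraries highest in muscle markers, and the part of that in the result was not tested. Without the 3 muscle-rich libraries 23 genes rose and none fell, with a median of 0.37, and without TD replicates 3 and 4 alone 23 rose and none fell, with a median of 0.39.

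Zbp1, a sensor of nucleic acids that can start cell death, shows that pattern. It read 18.2, 17.3, 15 and 20.2 CPM in WT, 34.7, 41.4, 38.6 and 45.6 in TA and 23.6, 26.4, 59.2 and 65.7 in TD. All mutant libraries lay above WT, with TD split into a low and a high pair. Its log2 fold change was 1.24 ± 0.23 (adjusted p 0.00143), and 0.83 without the 3 muscle-rich libraries. Oas2, which makes the 2-5A signal that activates RNase L, was split in the same way, with 15.7 to 20.8 CPM in WT, 34.9 to 41.9 in TA, and 25.1, 28.5, 60.7 and 66.4 in TD (log2 fold change 1.17 ± 0.22, adjusted p 0.00146, 0.82 without those libraries). In Dtx3l the same TD libraries were the higher pair by a smaller margin, and its log2 fold change was 2.66 without the 3 libraries. Ube2l6, the conjugating enzyme of the ubiquitin-like Isg15, rose by 1.03 ± 0.14 (adjusted p 0.000198).

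Genes of antigen presentation and the GTPases induced by interferon-gamma went the same way, with 22 of 33 higher (66.7%, beside 12.1% of all genes) and none lower (median 0.54). Leaving out WT replicate 3 left 13 of these calls, and leaving out the 3 muscle-rich libraries left 10. With every library kept, all libraries separated for 10 of the higher genes, where 3.78% of all genes did. The light chain of MHC class I, B2m, rose by 0.57 (adjusted p 0.000164), and the peptide transporter genes Tap1 and Tap2 by 0.55 (adjusted p 0.00302) and 0.29 (adjusted p 0.0259). Cxcl9, a chemokine that draws T cells, read 5.66, 4.37, 5.80 and 6.85 CPM in WT, 15, 15.5, 17.8 and 13.6 in TA and 10.1, 10.5, 30.8 and 24.8 in TD. No mutant library reached down to WT, and the log2 fold change was 1.60 ± 0.27 (adjusted p 0.000737). Gbp9, a guanylate-binding protein, went from 5.19 to 7.01 CPM in WT to 12.6 to 18.4 in TA and 10.3 to 26.1 in TD (1.45 ± 0.21, adjusted p 0.00027). It overlaps Gbp4 on the same strand, and the reads of these near copies may be divided between them.

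Ubd, a ubiquitin-like protein also induced by interferon-gamma, moved one way in both mutants but by unequal amounts. Its 4 WT libraries read 0.623, 1.14, 0.644 and 0.548 CPM, from 10 to 23 counts. TA read 8.60, 11.3, 8.52 and 9.89 CPM and TD 2.21, 1.83, 1.44 and 1.47. The 3 genotypes did not overlap, and TD lay below TA by 2.46 on the log2 scale (interval -2.92 to -2.0, adjusted p 2.6e-06).

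Neighbouring genes of the same families accounted for several of these rises. The families were looked up after their values had been seen. In the Ifi200 family, whose proteins bind DNA and respond to interferon, 9 of 10 tested genes rose, where 12.1% of all genes did. The same 9 separated all libraries, where 3.78% of all genes did, with log2 fold changes up to 1.70. The genes lie close together on chromosome 1 between 173468485 and 174031810, and Mndal overlaps Ifi211 and Ifi203 on the same strand. Ifi203 rose by 1.11 (0.97 in TA and 1.24 in TD) and Mndal by 0.89 (0.84 and 0.95), and Ifi209 was the exception at 0.16 (adjusted p 0.725). Of the Trim5, Trim12 and Trim30 genes on chromosome 7, which encode restriction factors, 5 of 6 rose, by 0.75 to 1.11, and 4 separated all libraries. These counts are to be read beside the same shares of all genes. Members of such families are near copies that share reads, so single values are less certain than the group.

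The promoters of the Ifi200 genes are shown because they share a stretch around the core of an interferon-stimulated response element, GAAANNGAAA. The promoter table (RefSeq, GRCm38.p6) held 250 bases before and 50 after the start for 9 of the 10 tested genes, and 8 of the rising ones have the core before the start. Capitals mark the core, with up to 60 bases to each side, 5′ to 3′ on the strand of the gene.
Ifi206: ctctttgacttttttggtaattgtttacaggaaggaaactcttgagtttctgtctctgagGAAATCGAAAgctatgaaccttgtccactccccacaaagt
Ifi208: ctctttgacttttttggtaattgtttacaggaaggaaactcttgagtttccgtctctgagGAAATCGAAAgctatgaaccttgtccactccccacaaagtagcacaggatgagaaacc
Ifi213: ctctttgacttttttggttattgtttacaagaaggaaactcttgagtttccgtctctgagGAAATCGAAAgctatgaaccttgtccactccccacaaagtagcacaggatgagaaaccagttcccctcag
Ifi203: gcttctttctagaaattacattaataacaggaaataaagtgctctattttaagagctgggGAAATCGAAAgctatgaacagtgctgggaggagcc
Mndal: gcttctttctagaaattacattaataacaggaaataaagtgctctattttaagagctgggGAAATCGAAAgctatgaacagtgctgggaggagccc
The windows are chr1:173491319-173491418 (minus strand) for Ifi206, chr1:173673547-173673664 (plus) for Ifi208, chr1:173599276-173599405 (minus) for Ifi213, chr1:173942493-173942587 (minus) for Ifi203 and chr1:173880188-173880283 (minus) for Mndal. Ifi206, Ifi208 and Ifi213 share nearly all of their letters, as Ifi203 and Mndal do. The next 3 come from other families of rising genes, the restriction factor Trim30d (chr7:104507850-104507950, minus), the signalling inhibitor Socs1 (chr16:10785544-10785679, minus) and B2m (chr2:122147488-122147617, plus), and in Trim30d the core stands on the other strand.
Trim30d: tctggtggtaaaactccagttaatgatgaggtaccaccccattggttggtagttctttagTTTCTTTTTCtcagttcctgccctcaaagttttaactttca
Socs1: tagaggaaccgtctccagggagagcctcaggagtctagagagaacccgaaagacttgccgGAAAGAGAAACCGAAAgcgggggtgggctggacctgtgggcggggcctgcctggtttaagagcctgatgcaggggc
B2m: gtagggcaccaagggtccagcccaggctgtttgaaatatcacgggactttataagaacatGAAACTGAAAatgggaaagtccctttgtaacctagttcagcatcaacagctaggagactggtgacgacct
The core, searched on both strands over the whole window, was in 31 of 411 promoters of the higher genes (7.54%), in 3 of 339 of the lower genes (0.885%) and in 414 of 10870 of all tested genes (3.81%). Near copies count separately in these shares. Of the 26 higher genes with the core before the start, 8 are Ifi200 genes, and Trim5, Trim12c and Trim30d are near copies too. Among common genes of the 2 interferon lists the core was in 2 of 11 promoters (18.2%). The single binding site of nuclear receptors, AGGTCA, was in 12.2% and 14.5% of the higher and lower genes' promoters and in 14.9% of all. The TATA box letters TATAAA were in 14.8%, 6.19% and 9.28%, in the same order. The direct repeat AGGTCANAGGTCA, of which PPARγ binds variants, was in 5 of the 10870 promoters and in none of those of the common genes. A match is only a match of letters in this window.

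Of 24 acute phase and complement genes 16 were higher (66.7%, beside 12.1% of all genes) and 1 lower (4.17%, Itih4, beside 10.1%). All libraries separated for 10 of the higher genes, where 3.78% of all genes did. The median log2 fold change was 0.68 (0.64 in TA and 0.71 in TD). Saa3, the serum amyloid A made by fat cells, read 1478, 1703, 1744 and 1363 CPM in WT, 3162, 1774, 4860 and 3326 in TA and 2961, 3273, 3667 and 4092 in TD. All mutant libraries were above WT, TA replicate 2 only just, and the log2 fold change was 1.11 ± 0.19 (adjusted p 0.000772). Cfb, the protease of the alternative complement pathway, went from 34.9 to 46.1 CPM in WT to 58.9 to 90 in TA and 70.4 to 102 in TD (1.02 ± 0.12, adjusted p 5.9e-05). C4b rose by 0.77 (adjusted p 0.000103) and C3 by 0.65 (adjusted p 0.000342, further in TD). The factor D gene Cfd, an adipocyte gene, fell by 0.56 on the log2 scale (adjusted p 0.00539). Of 9 tested Serpina3 genes, serine protease inhibitors close together on chromosome 12, 8 rose, where 12.1% of all genes did. Among them Serpina3n rose by 0.64 (adjusted p 0.000208) and Serpina3k by 1.03 (adjusted p 6.87e-06). Serpina3k lies within Serpina3m on the same strand, so reads may be divided between them.

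Chemokines and cytokines numbered 11 higher (50%, beside 12.1% of all genes) and none lower of 22, with 7 higher without WT replicate 1. The median log2 fold change of the list was 0.17 in TA and 0.79 in TD. All libraries separated for 4 of the higher genes, where 3.78% of all genes did. Cxcl13, which attracts B cells, read 143, 158, 151 and 104 CPM in WT, 495, 261, 549 and 324 in TA and 520, 556, 562 and 598 in TD. The lowest mutant library, TA replicate 2, was well above the highest WT library, and the log2 fold change was 1.78 ± 0.17 (adjusted p 9.9e-06). Ccl11, the eosinophil chemokine eotaxin, went from 2.19 to 2.92 CPM in WT to 4.80 to 9.74 in TA and 5.51 to 8.44 in TD (1.47 ± 0.20, adjusted p 0.000144). Cxcl12, which stromal cells make to retain leukocytes, rose by 1.11 ± 0.14 (adjusted p 9.75e-05). Among markers of the leukocytes themselves, 1 of 19 macrophage markers rose (Cd163) and the list's median was -0.12, with 580 to 1331 summed CPM in WT, 387 to 967 in TA and 1075 to 1372 in TD. The T cell genes Cd3d and Cd3g and the B cell gene Ms4a1 had no count in any library, and 1 of 16 lymphocyte markers reached the level needed for the test.

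**Figure D2:**
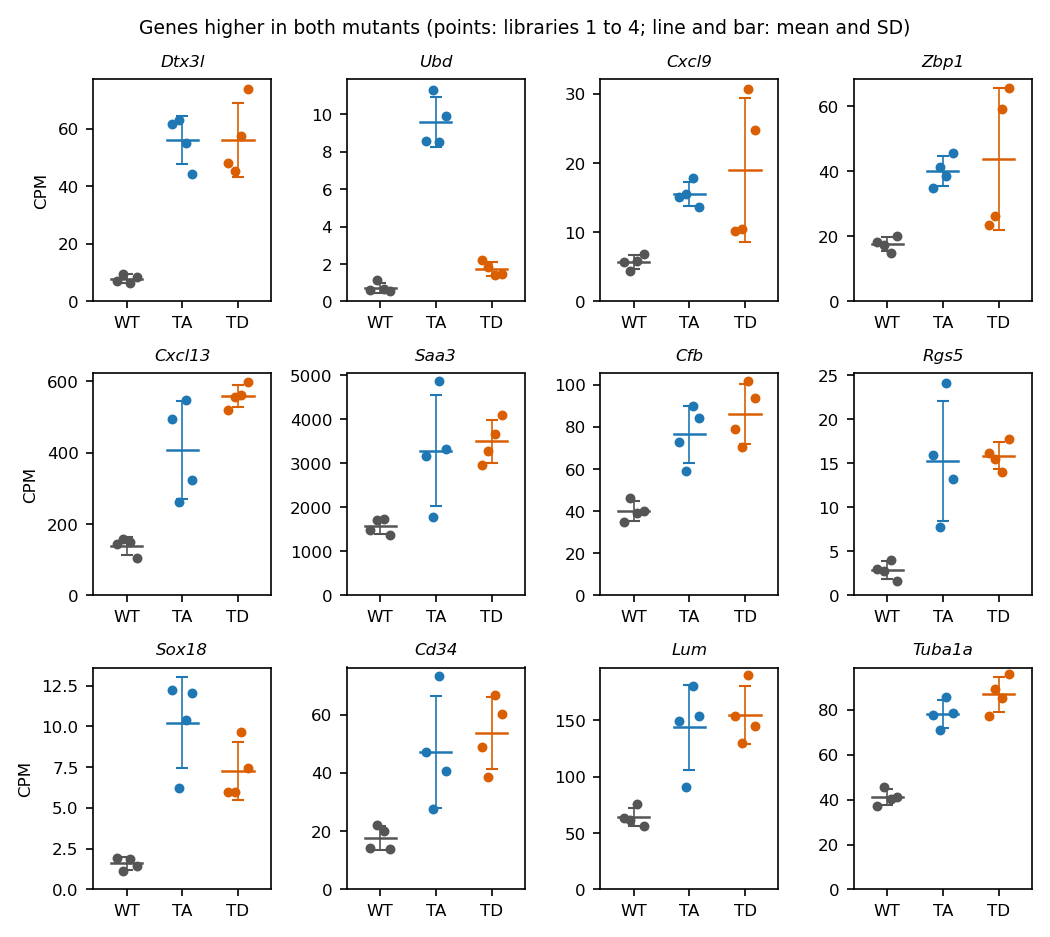
Normalized CPM of 12 genes that were higher in both mutants, with 1 point per library, and the mean and SD of the 4 libraries of each genotype. No mutant point of these genes lies at or below a WT point, TD divides into a low and a high pair for Zbp1 and Cxcl9, and Ubd is far higher in TA than in TD.

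Vascular genes were higher over TA and TD as a mean. Of 16 endothelial markers 14 were higher and none lower (median log2 fold change 1.05, 0.67 in TA and 1.32 in TD), and 3 separated all libraries. Their summed level was 71.2 to 117 CPM in WT, 112 to 184 in TA and 203 to 252 in TD, so TA replicate 2, the lowest mutant library, was within the range of WT. Pecam1 and Cdh5, which encode adhesion molecules of endothelial junctions, rose by 1.21 (adjusted p 0.000659) and 1.22 (adjusted p 0.000275), Cdh5 further in TD than in TA (difference 0.78, adjusted p 0.0114). Eng, a co-receptor for TGF-β, went from 10.5 to 16.2 CPM in WT to 18.4 to 27.3 in TA and 26.2 to 34.2 in TD (0.93 ± 0.13, adjusted p 0.000164). Sox18, a transcription factor of vascular development that is in no list, read 1.92, 1.14, 1.88 and 1.43 CPM in WT, 12.2, 6.21, 10.4 and 12.1 in TA and 5.96, 5.98, 9.69 and 7.45 in TD. The lowest mutant library was far above WT, and the log2 fold change was 2.43 ± 0.23 (adjusted p 7.18e-06). Egfl7 lies across from Agpat2, whose mean count is far higher, and its rise of 0.61 is uncertain.

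Pericyte and smooth muscle markers were higher for 10 of 13 (76.9%, beside 12.1% of all genes) and lower for none. They summed to 248 to 254 CPM in WT and 291 to 363 in the mutants. Rgs5, a regulator of G protein signalling that marks pericytes, read 3.01, 2.78, 4.06 and 1.64 CPM in WT, 16.0, 7.75, 24.1 and 13.2 in TA and 16.1, 15.5, 14.1 and 17.7 in TD. WT and the mutants did not overlap, TA varied the most, and the log2 fold change was 2.43 ± 0.27 (adjusted p 3.46e-05) with TD minus TA at 0.05 (interval -0.48 to 0.59). Notch3, the receptor that maintains mural cells, rose by 0.68 ± 0.09 (adjusted p 0.000176), and Myh11, the smooth muscle myosin, by 0.49 ± 0.10 (adjusted p 0.0034).

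Markers of preadipocytes and fibroblasts, the cells that had not become adipocytes, were higher for 15 of 25 (60%, beside 12.1% of all genes). They were lower for 1 (4%, Gpx3, beside 10.1%), with a median of 0.51. Their summed level was 14790 to 18910 CPM in WT, 15660 to 27030 in TA and 23910 to 34090 in TD, so TA replicate 2, the lowest mutant library, was within the range of WT. Pi16, a marker of fibroblast progenitors, read 2.13, 3.72, 3.62 and 4.05 CPM in WT, 15.1, 5.90, 15.5 and 12.4 in TA and 9.08, 6.52, 13.2 and 12 in TD. It separated all libraries, with TA replicate 2 again the nearest to WT (log2 fold change 1.72 ± 0.26, adjusted p 0.000378). Cd34 went from 13.8 to 22.1 CPM in WT to 27.6 to 73.2 in TA and 38.6 to 66.6 in TD (1.51 ± 0.22, adjusted p 0.00028). Dpt, a matrix protein of these cells, rose by 0.66 in TA and in TD (adjusted p 0.000164), and the growth factor receptor gene Pdgfra by 1.00 (adjusted p 0.000242), further in TD.

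Of 45 genes that remodel matrix 28 were higher (62.2%) and 2 lower (4.44%), with a median of 0.24 in TA and 0.63 in TD. Of 33 collagen genes 15 were higher (45.5%) and 3 lower (9.09%), with 9 higher when either WT replicate 1 or WT replicate 4 was left out. The collagen median was 0.19 in TA and 0.37 in TD. Of all genes 12.1% were higher and 10.1% lower. All libraries separated for 5 higher genes of each list, where 3.78% of all genes did. The summed level of TA replicate 2 was within the range of WT for both lists. Lum, a proteoglycan that spaces collagen fibrils, went from 56.6 to 75.3 CPM in WT to 90.8 to 181 in TA and 130 to 190 in TD (1.22 ± 0.15, adjusted p 8.67e-05). Col6a2, a chain of the collagen VI that surrounds fat cells, read 600 to 701 CPM in WT, 908 to 1080 in TA and 860 to 1086 in TD (0.65 ± 0.08, adjusted p 8.67e-05). Col15a1, of basement membranes, rose by 0.75 ± 0.07 (adjusted p 9.9e-06), further in TA than in TD by 0.32. In the Wnt list 11 of 28 were higher (39.3%) and 1 lower (3.57%). The number higher was 7 when WT replicate 1 or WT replicate 4 was left out, or with the mutants as 1 group of 8. Sfrp2, a secreted antagonist of Wnt, went from 26.9 to 44.1 CPM in WT to 50.7 to 111 in TA and 58 to 91.6 in TD (1.18 ± 0.18, adjusted p 0.00042).

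With gene models left out, skeletal muscle genes held the largest rises among common genes averaging at least 5 CPM in WT or in the mutants. They started from very low levels in WT. Of 24 tested, 20 were higher (83.3%, beside 12.1% of all genes) and none lower. The median log2 fold change was 3.28 (2.35 in TA and 4.08 in TD), and the satellite cell gene Pax7 had no count in any library. Most of these genes had few counts in WT and passed the filter through the mutant libraries, which favours rises. Of the 7 with at least 10 counts in every library, 5 were higher, with a median of 1.46. Myh3, the embryonic myosin heavy chain, had 2, 2, 0 and 5 counts in WT, 14, 71, 62 and 12 in TA and 22, 89, 367 and 234 in TD. Its groups did not overlap, the mutant libraries varied widely among themselves, and the log2 fold change was 5.28 ± 0.97 (adjusted p 0.00116). It was 4.19 (adjusted p 0.00175) without the 3 muscle-rich libraries and 6.01 without WT replicate 4. Without those 3 libraries 13 of 18 tested muscle genes were higher and 1 lower, with a median of 2.03, and without TD replicates 3 and 4 alone 16 of 24 were higher, with a median of 2.52. Myh1, an adult fast myosin, read 2.96, 0.0497, 0 and 1.92 CPM in WT, 6.03, 29.2, 10.0 and 5.28 in TA and 5.22, 25.9, 117 and 61.3 in TD (4.41 ± 0.90, adjusted p 0.00265, and 5.35 without WT replicate 1). The near copies Myh1, Myh3 and Myh8 share sequence, so reads may be divided between them. Actn3, the α-actinin of fast fibres, was steadier, at 2.58 to 3.77 CPM in WT, 9.59 to 12.1 in TA and 6.42 to 23.4 in TD (1.96 ± 0.28, adjusted p 0.000228).

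**Figure D3:**
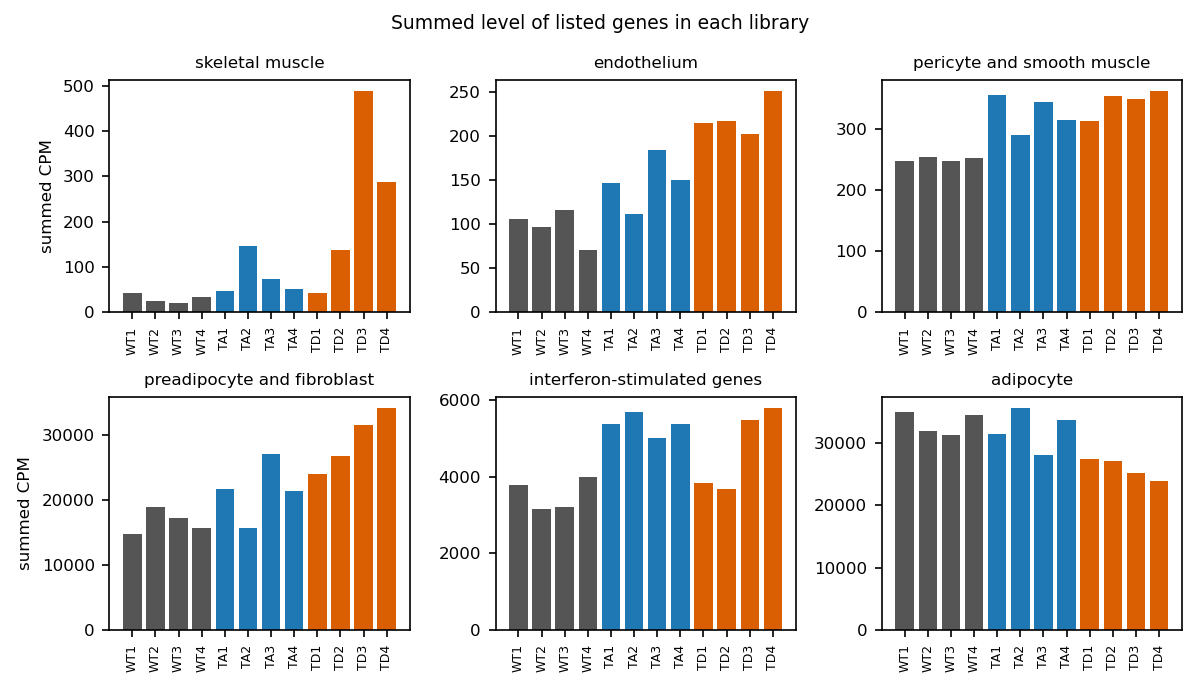
Summed normalized CPM of 6 gene lists in each of the 12 libraries, with 1 bar per library. Muscle markers peak in TD replicates 3 and 4 (488 and 287 CPM), endothelial markers are highest in TD, and interferon-stimulated genes are as low in TD replicates 1 and 2 as in WT.

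Among PPARγ target genes, 4 of 37 were higher (10.8%, beside 12.1% of all genes) and 9 lower (24.3%, beside 10.1%), and 3 separated all libraries in each direction, where 3.78% and 2.8% of all genes did. The median was -0.19, from 0.14 in TA and -0.47 in TD. The number lower fell to 4 on leaving out WT replicate 1 and to 5 on leaving out WT replicate 4, and it was 15 on leaving out TA replicate 2 and 4 on leaving out TD replicates 3 and 4. Slc27a1, a fatty acid transporter, separated all libraries but rose far more in TA. It read 274 to 309 CPM in WT, 794 to 919 in TA and 314 to 363 in TD, with log2 fold changes of 1.48 and 0.19. Pck1, the gluconeogenic and glyceroneogenic enzyme, fell from a mean of 3.77 CPM in WT to 0.830 in TA and 0.694 in TD (log2 fold change -2.29, adjusted p 0.000704). Lpl, the lipoprotein lipase of adipocytes, fell by 0.32 on the log2 scale (adjusted p 0.00588). It read 6917 to 7929 CPM in WT, 5655 to 6674 in TA and 5540 to 5879 in TD.

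Lipogenic genes split, with 6 of 25 higher and 6 lower, 24.0% each way beside 12.1% and 10.1% of all genes. The median was 0.32 in TA and -0.25 in TD, and the summed level was 81030 to 93550 CPM in WT, 73210 to 91120 in TA and 59920 to 64540 in TD, so the list as a whole did not move alike with both residues. Acly, which makes cytosolic acetyl-CoA from citrate, read 988, 1135, 1005 and 1102 CPM in WT, 3926, 2978, 3652 and 2525 in TA and 1726, 1561, 1845 and 1835 in TD. The 3 genotypes did not overlap, the common log2 fold change was 1.17 ± 0.11 (adjusted p 6.86e-06) and TD lay 0.91 below TA. Acacb, the acetyl-CoA carboxylase at mitochondria, fell by 0.77 on the log2 scale (adjusted p 0.000259), with its lowest WT library level with the highest TA library to 3 digits. Scd1, the desaturase with the highest mean level of all genes in WT, fell by 0.52 (adjusted p 0.00161) on that scale, and Dgat1, which completes triglyceride synthesis, by 0.36 (adjusted p 0.00216). Sterol synthesis had 5 of 24 higher (20.8%, beside 12.1% of all genes) and 1 lower (4.17%, Hmgcs1, beside 10.1%). The list had a median of 0.24 in TA and -0.06 in TD. Its summed level was 3306 to 4151 CPM in WT, 4782 to 5647 in TA and 3001 to 3335 in TD. The number higher was 1 on leaving out WT replicate 2, 2 on leaving out WT replicate 3, 3 on leaving out any of WT replicate 4, TA replicates 1 or 2 and TD replicates 1, 3 or 4, and 1 on leaving out the 3 muscle-rich libraries. The epoxidase gene Sqle, at 0.27, lost its call on leaving out WT replicate 2 or WT replicate 3.

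**Figure D4:**
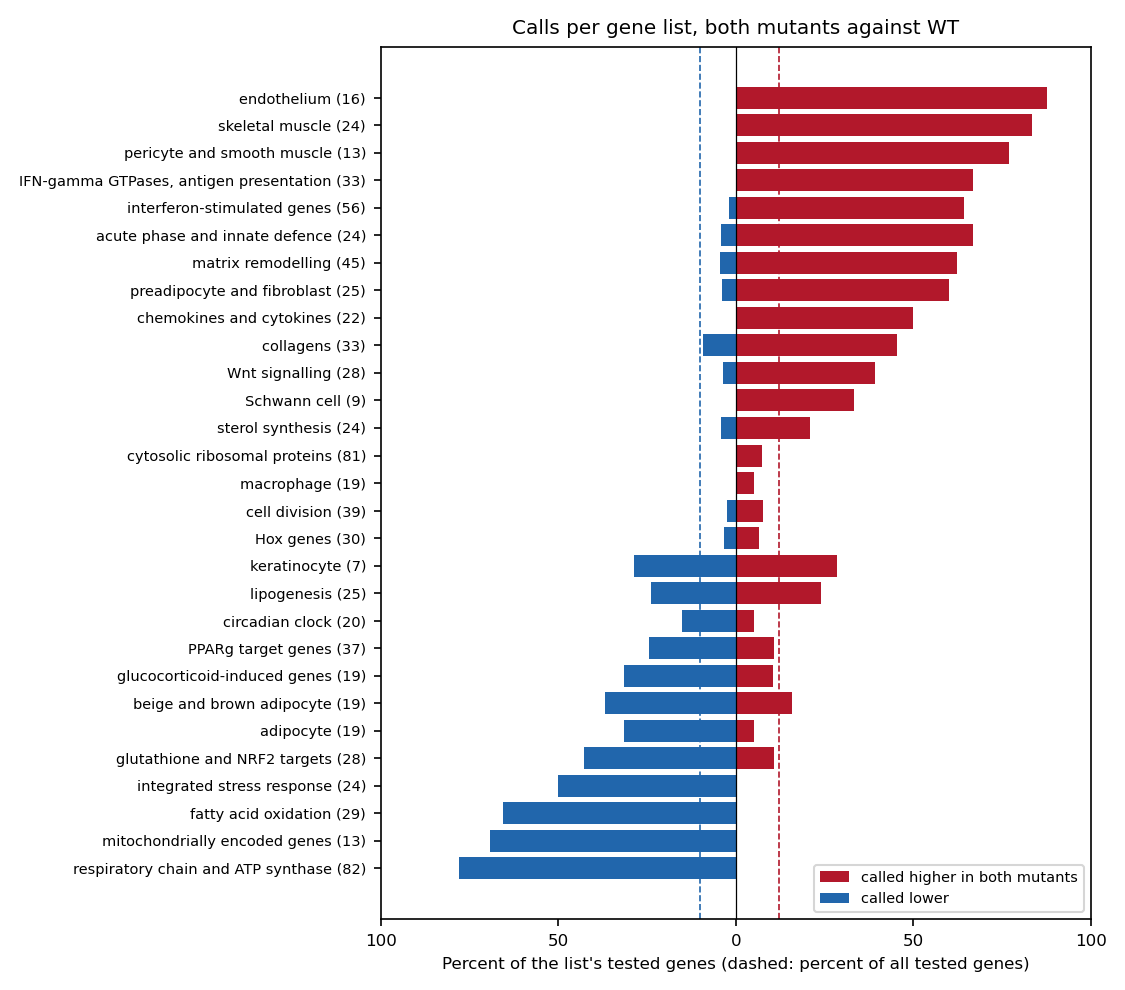
Percent of the tested genes of each list (number in brackets) that passed the test of both mutants against WT, higher to the right and lower to the left. Dashed lines mark the 12.1% and 10.1% of all tested genes, and lists of fewer than 7 tested genes are left out. Endothelial, muscle, pericyte and interferon lists lie far right of the dashed line and mitochondrial lists far left.

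Several markers of beige and brown adipocytes and several mitochondrial genes fell. Kcnk3, a potassium leak channel enriched in brown and beige fat cells, read 99.0, 74.7, 76.0 and 80.3 CPM in WT, 22.2, 39.4, 15 and 21.7 in TA and 20.3, 23.8, 18.1 and 14.1 in TD. Every mutant library lay well below WT and TA and TD overlapped (log2 fold change -1.93 ± 0.17, adjusted p 6.14e-06, TD minus TA -0.36, interval -0.83 to 0.11). Dio2, which activates thyroid hormone in brown fat, went from 4.22 to 6.74 CPM in WT to 1.29 to 3.50 in TA and 1.83 to 3.52 in TD (-1.31 ± 0.24, adjusted p 0.00124). Cox7a1, a cytochrome c oxidase subunit of heart, muscle and brown fat, went from 33.6 to 48.2 CPM to 16.0 to 29.2 in TA and 6.92 to 18.1 in TD. It fell in both but further in TD, by 0.86 (log2 fold change -1.27 ± 0.20, adjusted p 0.000428). Of 19 markers of beige and brown adipocytes 7 were lower (36.8%, beside 10.1% of all genes) and 3 higher (15.8%, beside 12.1%). The median was 0.04 in TA and -0.53 in TD. All libraries separated for 4 of the lower and 2 of the higher markers, where 2.8% and 3.78% of all genes did. The higher markers were Tmem26, Hoxc9 and Otop1. Otop1, a proton channel gene, was at 0.0124 CPM in WT, 2.97 in TA and 0.150 in TD, so it passed the filter through TA, which favours a rise. Of the 16 markers with at least 10 counts in every library, 1 was higher and 7 lower.

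Nuclear genes of the respiratory chain and ATP synthase were lower for 64 of 82 (78%, beside 10.1% of all genes) and higher for none. Only Cox7a1 among these genes separated all libraries, 1 of 82 where 2.8% of all genes did. Their median was -0.40, from -0.12 in TA and -0.68 in TD. With TA and TD as 1 group of 8, so that the distance between them counts as spread, 12 were lower. Enzymes of fatty acid oxidation were lower for 19 of 29 (65.5%, beside 10.1% of all genes) and higher for none, and lower for 4 in that fit. Their median was -0.30 (-0.014 in TA and -0.60 in TD). All libraries separated for 3 of them, where 2.8% of all genes did. Acot2, the mitochondrial acyl-CoA thioesterase, was among the 3 that separated, at 30.0 to 32.8 CPM in WT, 10.7 to 18.8 in TA and 15.3 to 19.7 in TD (-1.0 ± 0.12, adjusted p 8.01e-05). Of the 13 genes of mitochondrial DNA 9 were lower (69.2%, beside 10.1% of all genes) and none higher. The cytochrome oxidase subunit mt-Co1 read 33200, 25540, 28320 and 31550 CPM in WT, 22490, 23190, 17210 and 14240 in TA and 18860, 17940, 15740 and 15190 in TD (-0.71 ± 0.13, adjusted p 0.000947).

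Stress genes were lower as well over TA and TD as a mean. Of 24 genes of the integrated stress response 12 fell (50%, beside 10.1% of all genes) and none rose (median -0.28 both together and in TA, -0.24 in TD). All libraries separated for 3 of the falls, where 2.8% of all genes did. The summed level of TA replicate 4 was within the range of WT. Gdf15, a cytokine that cells release under stress, read 16.0, 8.94, 15.7 and 18.3 CPM in WT, 3.39, 3.08, 2.50 and 5.67 in TA and 5.05, 6.90, 6.71 and 5.45 in TD. It lay below WT in all 8 mutant libraries (-1.64 ± 0.19, adjusted p 5.9e-05). Pck2, the mitochondrial enzyme that makes phosphoenolpyruvate, fell by 0.49 on the log2 scale (adjusted p 0.000718) and Mthfd2, of mitochondrial folate metabolism, by 0.59 (adjusted p 0.000468), further in TD. In the glutathione and NRF2 list 12 of 28 fell (42.9%, beside 10.1% of all genes) and 3 rose (10.7%, beside 12.1%). All libraries separated for 4 of the falls and 1 of the rises. The summed level of TA replicate 2 was within the range of WT. Gpx4, which repairs oxidized lipids, went from 233 to 283 CPM in WT to 135 to 202 in TA and 137 to 160 in TD (-0.71 ± 0.09, adjusted p 0.000104). Fkbp5, a target of the glucocorticoid receptor, fell by 0.52 on the log2 scale (adjusted p 0.000622), with 6 of 19 genes of its list lower (31.6%, beside 10.1% of all genes) and 2 higher (10.5%, beside 12.1%). Leaving out WT replicate 1 left 2 lower, leaving out WT replicate 4 left none higher, and leaving out TD replicates 3 and 4 left 1 lower.

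Cdsn, which encodes corneodesmosin, an adhesion protein of the skin surface, had the largest fall at that minimum of 5 CPM, gene models left out. It read 21.9, 12.7, 19.8 and 23.4 CPM in WT, 0.702, 1.17, 0.724 and 0.778 in TA and 3.97, 5.23, 4.58 and 4.04 in TD. The genotypes stood fully apart, with TA lowest (log2 fold change -3.32 ± 0.16, adjusted p 7.9e-09, TD minus TA 2.40, adjusted p 1.03e-05). The gene lies on the plus strand at chr17:35552128-35557180 of GRCm38, among MHC genes. Of 7 keratinocyte markers tested, 2 were lower (Cdsn and Sbsn) and 2 higher (Trp63 and Sfn), and Dsc3, Lor and Flg had no count. These are 28.6% each way, beside 10.1% of all genes lower and 12.1% higher.

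Acsm3, a medium-chain acyl-CoA synthetase, read 33.4, 17.9, 13.6 and 24.0 CPM in WT, 1.52, 5.35, 1.56 and 2.94 in TA and 5.62, 5.82, 4.47 and 4.16 in TD. Its mutant libraries were all far below WT (-2.56 ± 0.26, adjusted p 1.4e-05), though it overlaps Eri2 on the other strand, which had more counts. Phospho1, a phosphatase of phosphocholine and phosphoethanolamine, fell by 1.65 on the log2 scale (adjusted p 3.6e-06) and lies within Zfp652, which had more counts. Itih5, a hyaluronan-associated protein abundant in fat, went from 53.0 to 69.1 CPM in WT to 12.9 to 17.1 in TA and 25.7 to 37.0 in TD, so it fell further in TA (-1.51 ± 0.11, adjusted p 4.04e-07). Strip2, a partner of striatins, also fell further in TA, with log2 fold changes of -2.78 and -0.90. Chchd10, a protein of mitochondrial cristae, fell further in TD, at -0.95 and -1.77. Of the remaining largest falls, Nptx1, Lctl, Coro6, Stbd1 and Tfr2 ranged from -1.59 to -1.33.

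**Figure D5:**
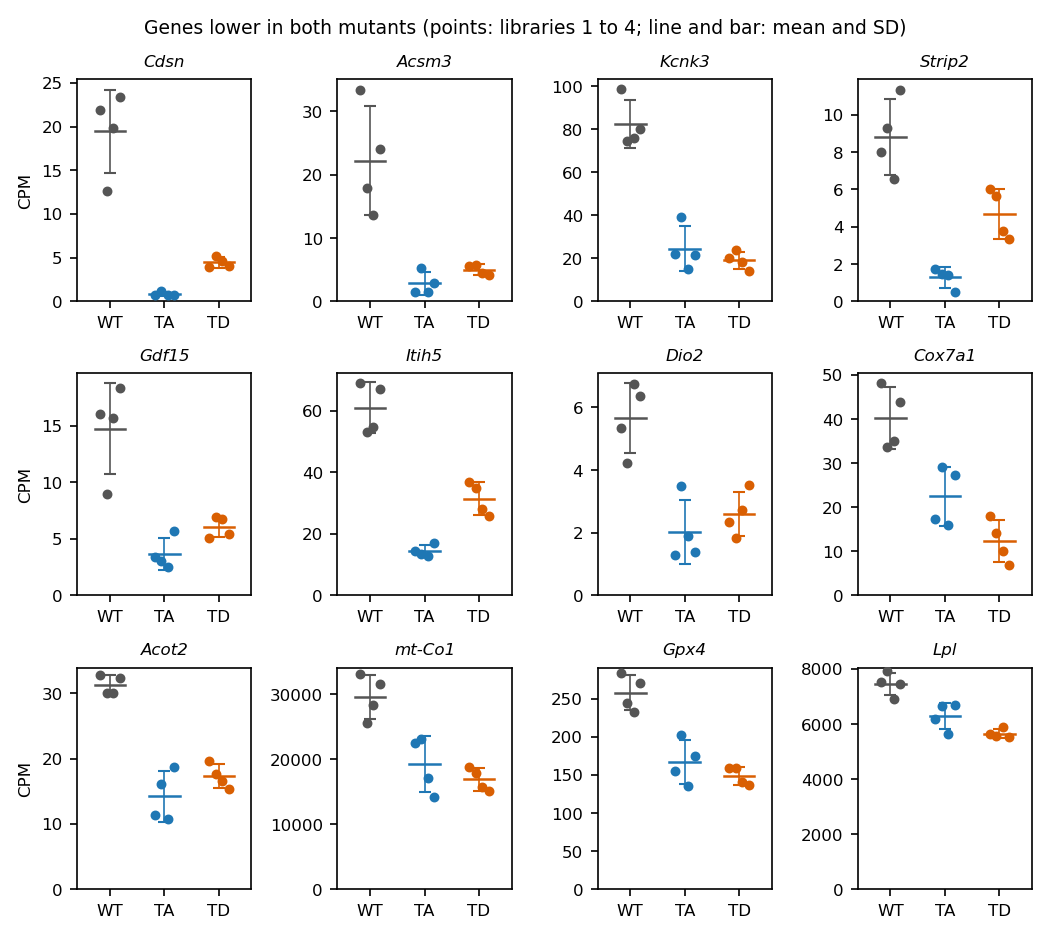
Normalized CPM of 12 genes that were lower in both mutants, with 1 point per library, and the mean and SD of the 4 libraries of each genotype. TA and TD overlap for Kcnk3, Dio2, Gpx4 and mt-Co1, TA is the lower for Cdsn, Strip2 and Itih5, and TD is the lower for Cox7a1.

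Common genes were also ranked by the TD minus TA interval, with the same minimum of 5 CPM and gene models left out. The 6 with at least a 2-fold change for which TD and TA were held closest were Tuba1a, Olfml2b, Scara3, Clec3b, Ube2l6 and Dtx3l, all higher. Tuba1a, an α-tubulin, read 37.1, 45.7, 40.1 and 41.0 CPM in WT, 77.7, 70.9, 85.9 and 78.6 in TA and 77.2, 89.3, 85.1 and 96.0 in TD. WT stood apart and TA and TD overlapped (1.01 ± 0.08, adjusted p 1.29e-06, TD minus TA 0.15, interval -0.03 to 0.33). Clec3b, the plasminogen-binding tetranectin, rose by 1.28 ± 0.14 (adjusted p 3.57e-05) with TD minus TA at 0.04 (interval -0.28 to 0.36). Olfml2b, a secreted matrix protein, and Scara3, a scavenger receptor, rose by 1.07 and 1.03.

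Pparg itself was not among the common genes. It read 373, 331, 344 and 368 CPM in WT, 352, 428, 322 and 392 in TA and 258, 257, 224 and 210 in TD, so only TD lay apart. The log2 fold change was 0.08 in TA, -0.58 in TD and -0.25 for both (adjusted p 0.0362), a call that was lost in 11 other settings. A changed codon does not alter read counts, so the level checks neither label. Within 1 Mb on each side of Pparg, 2 of 22 tested genes were common to the mutants, Ift122 at 0.27 and Plxnd1, a semaphorin receptor gene, at 0.68, both higher, a share of 9.09% beside 6.58% of all genes.

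At the edge of the rule, Pdgfc, Fam49a and Timm29 were just inside. Timm29 for example read 71.0 to 79.5 CPM in WT and 61.3 to 71.0 in the mutants. Srrm1 and Ndufv3 were just outside, Ndufv3 with 129 CPM in its lowest WT and highest TA library. Cd209b, also outside, had no count in WT, at most 1 in TA and 12 to 16 in TD.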

How the data were processed

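Total RNA of 12 cultures, 4 each of WT, TA and TD, was sequenced by the study. The authors deposited raw counts of reads per gene, made with bcl2fastq 2.17.1.14, cutadapt 1.9.1, HISAT2 2.0.1 and HTSeq 0.6.1 on GRCm38 according to the submitters' processing notes. The strand setting of the counting is not given in the sources used here, so genes that overlap cannot be separated with certainty. Gene names were those deposited with the counts, and 27 symbols altered by spreadsheet software were replaced by GENCODE M21 names through the identifier. Gene types and positions were read from GENCODE M21.

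Genes were kept by filterByExpr (at least 10 counts in the smallest group and 15 in all), which left 15117 of 55573. Libraries were scaled by TMM (factors 0.957 to 1.04) and fitted with edgeR 4.0.16 (limma 3.58.1, R 4.3.3) by the quasi-likelihood test, 1 mean per genotype. The contrast of interest was the mean of TA and TD minus WT, and TD minus TA was tested in the same fit. P-values were adjusted by Benjamini-Hochberg over all tested genes at 0.05, two-sided. TA and TD share the WT libraries, so their separate fold changes are given side by side only. Where 1 genotype was near 0, fitted fold changes depend on the prior count. Alternatives included DESeq2 1.42.0, other scalings and filters, thinning to the lowest total, 1 group of 8 mutants, a replicate block and leaving out each library. The functions were tested on simulated data.

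Replicate numbers are shared between genotypes. Deviations of libraries with the same number correlated at -0.237 to 0.196 (12 pairs, 2 over 0.1) and of those with different numbers at -0.257 to 0.264 (36 pairs, 4 over 0.1), so the numbers did not pair the libraries.

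Named genes were Pparg, the 14 largest rises and 14 largest falls among common genes averaging 5 CPM or more in WT or in the mutants, up to 3 such genes of each list, the 6 with the narrowest TD minus TA interval among those with a log2 change of at least 1, and 3 just inside and 3 just outside the rule. Gene models known only by a number or accession were left out, except at the edge of the rule. Other genes named were chosen after their values were seen. The common genes, the gene lists and the tests were chosen with earlier results of these data known. Values of 2 genes of the lists are not reported here.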

Additional observations from a re-analysis of the deposited data

Results flagged for a closer look

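Among 82 named genes, those at the edge of the rule aside, 22 differed between TD and TA by edgeR's quasi-likelihood test with adjusted p under 0.05. Of all tested genes 16.7% did. Most of the named genes were chosen for the size of their change, so nothing is read from this count. On the log2 scale TD minus TA was 2.08 for Myh3, 2.33 for Atp2a1, 1.49 for Tnnt3 and 2.13 for Neb, all muscle genes, and TD replicates 3 and 4 were the highest in these. It was 2.40 for Cdsn, 1.88 for Strip2, 1.12 for Itih5, 1.01 for Lctl and 0.29 for Srxn1, which fell further in TA. It was -0.82 for Chchd10, -0.86 for Cox7a1, -0.45 for Acadvl, -0.45 for mt-Nd5, -0.32 for Fkbp5 and -0.53 for Mthfd2, which fell further in TD. Among genes that rose it was -2.46 for Ubd, -1.29 for Slc27a1, -0.91 for Acly, -0.58 for Elovl6 and -0.32 for Col15a1, which rose further in TA, and 0.51 for Eng. Pparg stood at -0.66. Of the 3 genes just outside the rule Ndufv3 differed as well, by -0.33 (adjusted p 0.0338), and so did Cd209b (adjusted p 0.00084), whose counts are too low in WT and TA for a fold change.

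A single library lay apart from the other 3 of its genotype, by Dixon's ratio at its 95% critical value, for 11 of 246 groups, and chance alone gives about 1 in 20 such groups. WT replicate 2 read 1.14 CPM for Ubd against 0.548 to 0.644, and WT replicate 1 read 11.3 for Lctl against 12.4 to 12.6. TA replicate 2 read 4.49 for Neb against 2.56 to 2.73 and 1.17 for Cdsn against 0.702 to 0.778. TA replicate 4 read 2.06 for Nptx1 against 1.17 to 1.29 and 919 for Slc27a1 against 794 to 802. TD replicate 4 read 6.57 for Clstn2 against 3.80 to 3.94, 1.35 for Tfr2 against 2.91 to 3.01 and 17.9 for Rpl27a against 19.7 to 20.1. TD replicate 1 read 6.25 for Dkk3 against 8.44 to 8.73, and TD replicate 3 read 14.6 for Egfl7 against 19.1 to 19.4.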

How the results depend on the processing

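With a log2 change above 1 required, 542 genes passed, 452 higher and 90 lower, so 83.4% were higher beside 54.5% at any size. The filter, as said above, favours large rises. Scaling by library totals alone made 60.8% higher. With TA and TD as 1 group of 8, 1978 passed, 756 of them lower, and no TD minus TA test was possible. Leaving out 1 library gave 2101 (without WT replicate 1) to 3843 genes called, 1217 to 2059 higher and 884 to 1784 lower (1021 without WT replicate 4). No overlap was seen for 1090 to 1791 genes, 605 to 1031 above and 476 to 761 below, and the common genes numbered 569 to 990 higher and 409 to 700 lower, the most without TA replicate 2. The share of common genes called between TD and TA ran from 7.37% to 19.1%. Without the 3 libraries highest in muscle markers, a choice made after seeing the data, 1979 genes had no overlap (1117 above, 862 below), 908 common genes were higher and 3.59% differed between TD and TA. Without TD replicates 3 and 4 alone, chosen likewise, 1881 genes were called, 1086 higher and 795 lower, and 5.65% of common genes differed between TD and TA. DESeq2 called 3726 genes and kept 993 of the 995, and thinning to the lowest total kept 882. The replicate block gave 3200 genes called (554 common genes higher, 415 lower, 13.4% called between TD and TA). Of 1925 values of named genes under these settings, 1903 kept their direction and side of the threshold, 22 lost the threshold in Pparg, Sqle, Stard4, Rpl15 and mt-Nd2, and none reversed. Depth, with 16553324 counts in the shallowest library, limits genes of a few counts, such as the muscle genes in WT.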

Other observations

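In further gene groups the numbers called over both mutants are to be read against 12.1% of all genes higher and 10.1% lower. Of 20 circadian clock genes 1 was higher (5.00%) and 3 lower (15%), with 1 lower on leaving out WT replicate 1 or WT replicate 4, and none separated all libraries. Of 30 Hox genes 2 were higher (6.67%) and 1 lower (3.33%), and of 39 genes of cell division 3 (7.69%) and 1 (2.56%), with 1 to 5 higher on leaving out 1 library. Of 81 cytosolic ribosomal protein genes 6 were higher (7.41%) and none lower, with from 1 higher on leaving out WT replicate 2 to 14 on leaving out TA replicate 2. Adipocyte markers were lower for 6 of 19 (31.6%) and higher for 1, with a median log2 fold change of 0.03 in TA and -0.47 in TD. Of these markers 3 were lower on leaving out WT replicate 1, WT replicate 4 or TD replicate 4, and 11 on leaving out TA replicate 2. Of 9 Schwann cell markers 3 were higher (33.3%), but none on leaving out WT replicate 1, WT replicate 4 or TD replicate 2, and none with the mutants as 1 group of 8. Of 4 neutrophil markers 2 were higher, and of 4 markers of mammary and secretory epithelium 1.

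Other common genes outside the lists rose by a large amount. Chl1, a neural cell adhesion molecule, read 1.56, 5.81, 7.98 and 3.67 CPM in WT, 16.6, 9.53, 30.8 and 14.9 in TA and 14.9, 19.2, 20.9 and 34.2 in TD (log2 fold change 2.07 ± 0.37, adjusted p 0.00101). Clstn2, a synaptic calsyntenin, rose by 1.93 (adjusted p 0.000919).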
